A study of Mus musculus with 12 samples.

Results

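Genes of the G2 and M phases of the cell cycle were followed by name in single mouse cells that carry the label of haematopoietic stem cells (HSC), taken from 3 tissues. The set held 53 genes, all of which occurred among the 22307 gene symbols of the deposited tables. They were chosen by symbol from a list of mitotic genes and were read 1 by 1 and as a sum. The rule names genes and no measured value, but the choice was made with earlier results of these data known. By role they comprised 6 genes of cyclin-dependent kinase 1, its cyclin B and Cks partners and its activating phosphatase, 4 of the mitotic ubiquitin ligase machinery, 5 mitotic kinases, 8 kinetochore and centromere genes, 16 spindle and microtubule genes, 3 cytokinesis genes, 9 genes of chromosome structure and chromatin, and 2 of the nuclear envelope.

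The cells came from the aorta-gonad-mesonephros region (AGM), where the first stem cells of the blood arise in the embryo, from fetal liver, where they multiply, and from bone marrow, where they are kept in the adult. The study as a whole worked with the DARLIN and Cas9/CARLIN mouse lines, which record lineage in DNA barcodes. The labels of these samples do not say which line, inducing agent or age a plate had, nor by which surface markers the cells were sorted. Each well of a 96-well plate received 1 cell. Its nucleus was taken away on magnetic beads, and the cytoplasmic polyadenylated RNA was read by a modified form of single-cell tagged reverse transcription (scSTRT-seq) with unique molecular identifiers (UMIs). There were 2 AGM, 5 fetal liver and 5 bone marrow plates. Both AGM plates shared 1 origin code. A code was likewise shared within plates 1 to 3, and another within plates 4 and 5, of fetal liver as of bone marrow. Whether such a code stands for one mouse or several is not stated. Bone marrow plates 4 and 5 are placed in that tissue by their titles alone.

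Entry into mitosis is driven by cyclin-dependent kinase 1 bound to cyclin B. Exit from it requires the anaphase-promoting complex, a ubiquitin ligase that with its activator Cdc20 destroys cyclin B and securin. Between these steps, Aurora kinases and kinetochores attach chromosomes to the spindle. The messages for these proteins are made late in the cycle, from promoters that commonly carry a cell cycle homology region (CHR), bound by the DREAM and MuvB complexes, and CCAAT boxes, bound by NF-Y. Resting blood stem cells keep these messages low, and those of the fetal liver are known to cycle more than those of adult marrow.

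Wells with few genes or UMIs were left out. AGM kept 143 cells, fetal liver 454 and bone marrow 423, and their 83152493 UMIs included 506257 of the 53 genes. The median cell of a plate held from 29964 to 165904 UMIs, and AGM cells were the deepest. Fetal liver plate 5 stood apart, with a median of 2 UMIs per detected gene against 4 to 7 on the other plates of its tissue and 3 to 18 on the plates of bone marrow. Bone marrow plate 3 also stood apart: 9 of the 53 genes had no UMI there (Ube2c, Birc5, Ccnb1, Bub1, Kif11, Ttk, Dlgap5, Aurka and Nek2), which allows each up to 3 UMIs or 0.413 CPM for counting error alone. Of a list of 12 stem cell genes none was at 0 in any tissue, and the list summed to 1271 to 1295 CPM on AGM plates, 1308 to 1362 on fetal liver plates and 1549 to 1779 on bone marrow plates. A list of 16 endothelial genes summed to 2086 to 2645 CPM in AGM, 990 to 1332 in fetal liver and 469.5 to 781 in bone marrow, where Cdh5, Mmrn2 and Plvap were at 0. Of that list 10 genes were called lower from AGM to fetal liver and 6 from fetal liver to bone marrow, against 1.91% and 2.06% of all tested genes. The calls are those of the test described below, at its adjusted p under 0.05. Erythroid genes, 15 of them measured, summed to 383 to 403 CPM in AGM, 904 to 3183 in fetal liver and 1303 to 1815 in bone marrow. The part of these lists in the differences below was not tested.

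Summed over the 53 genes, the level stood at 8374 and 8339 CPM (UMI counts scaled by library depth and by the trimmed mean of M values, TMM) on the 2 AGM plates. It was 6812, 6314, 5627, 5653 and 7180 CPM on fetal liver plates 1 to 5. On bone marrow plates 1 to 5 it was 3067, 3405, 2573, 3774 and 4694 CPM. The plates of the 3 tissues did not overlap, with AGM highest and bone marrow lowest. Plates with 1 code were then added up into 1 library, which gave 8321 CPM in AGM. Fetal liver then had 6372 and 6138 CPM, bone marrow 3042 and 4398 CPM, so that AGM was 1.33-fold above the fetal liver mean and fetal liver 1.68-fold above the bone marrow mean. The 2 bone marrow libraries differed more from each other than the 2 fetal liver libraries did. In these sums, fewer cells with mitotic RNA and less of it per cell cannot be told apart.

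**Figure D1:**
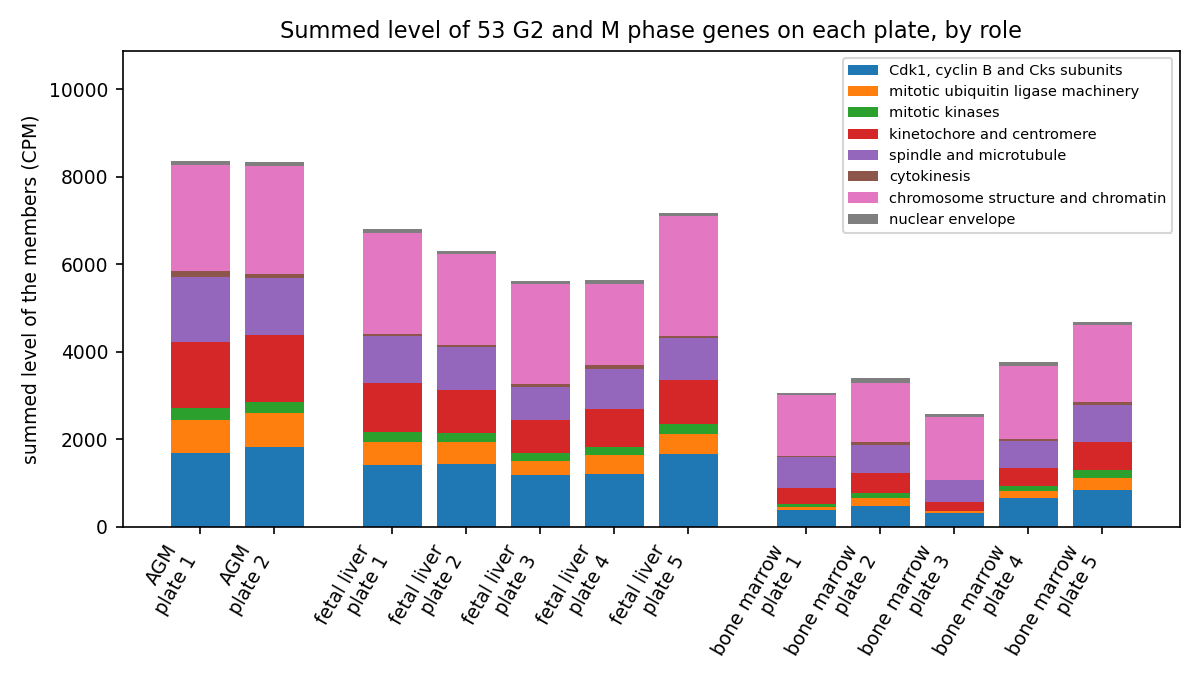
Summed level of the 53 genes in CPM (y axis, from 0) on each of the 12 plates (x axis), with each bar divided by role. AGM plates reach 8339 and 8374 CPM, fetal liver plates 5627 to 7180 and bone marrow plates 2573 to 4694.

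The fall from fetal liver to bone marrow was uneven across roles. The ubiquitin ligase genes stood 2.76-fold higher in fetal liver, the Cdk1 and cyclin B group 2.29-fold, the kinetochore group 2.09-fold and the mitotic kinases 1.97-fold. Cytokinesis genes stood 1.63-fold higher, and chromatin genes, spindle genes and nuclear envelope genes 1.37-fold, 1.36-fold and 1.18-fold. From AGM to fetal liver the ordering was different, with ubiquitin ligase genes 1.64-fold, kinetochore genes 1.59-fold and spindle genes 1.5003-fold higher in AGM. Cytokinesis genes stood 1.498-fold higher, kinases 1.32-fold, Cdk1 group genes 1.28-fold, chromatin genes 1.12-fold and nuclear envelope genes 1.10-fold. Each is a ratio of sums, which leans on abundant genes. Tubb4b made up 265 of the 1427 CPM of spindle genes in AGM and 311 of 951 in fetal liver. Hmgb2 made up 1266 of the 2174 CPM of chromatin genes in fetal liver and 778 of 1586 in bone marrow. The 6 genes of the set that also have well-known uses outside mitosis (Hmgb2, Tubb4b, Anp32e, Tmpo, Cbx5 and Ctcf) were left out as an alternative. Without them the remaining 47 genes stood 1.88-fold higher in fetal liver than in bone marrow and 1.503-fold higher in AGM than in fetal liver.

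Single genes were tested over the 5 libraries with the quasi-likelihood test of edgeR, and a gene was called at a Benjamini-Hochberg adjusted p under 0.05 over all 15472 tested genes. All 53 genes passed the filter on low counts. From fetal liver to bone marrow 16 of the 53 fell and 0 rose, whereas 2.06% of all tested genes fell and 2.68% rose. At an unadjusted p under 0.05, in either direction, there were 31 of the 53, against 16.6% of all tested genes. Over all 53 the median log2 fold change was -0.76, against 0 over all tested genes. Of the 53, 12 were lower on every bone marrow plate than on any fetal liver plate, against 4.48% of all tested genes. The calls lay mostly in 4 roles: 5 of 6 in the Cdk1 and cyclin B group, 3 of 4 in the ubiquitin ligase machinery, 5 of 8 at the kinetochore and centromere and 2 of 5 kinases, but 1 of 16 spindle genes and 0 of the 14 genes of the remaining 3 roles. A call depends on the error as well as on the change: the cytokinesis gene Ect2 was not called at -1.92 ± 0.58, while Cenpf was called at -0.91 ± 0.22. The count leaned on several plates. Without fetal liver plate 4, which leaves the shallow plate 5 alone in its library, 1 of the 53 was called (Cenpa), while the share of all genes called in either direction fell from 4.73% to 0.766%. Without bone marrow plate 2, bone marrow plate 4 or fetal liver plate 3 the count was 8 each time, where 1.54%, 1.5% and 1.23% of all genes fell. With AGM left out of the model 3 of the 53 fell, against 1.04% of all genes. In each of these fits the count of the set and the share of all genes moved the same way. In some others they did not. With each plate as a library 12 of the 53 fell, while 3.8% of all genes fell. Without bone marrow plate 5 the count stayed at 16, of which 14 were the same genes, while 1.21% of all genes fell. With DESeq2 it was 16 too, while 2.93% of all genes fell. Without bone marrow plates 4 and 5 together, which leaves 1 bone marrow library, the log2 fold change of Hjurp was 1.10.

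The largest fall was that of Ccnb1, which encodes cyclin B1, the activating subunit of Cdk1. It measured 172 and 189 CPM on the AGM plates, 106, 113, 63.8, 105 and 81.5 CPM on fetal liver plates 1 to 5, and 17.9, 2.43, 0, 29.0 and 23.9 CPM on bone marrow plates 1 to 5, where the 0 allows up to 0.413 CPM. No bone marrow plate reached the lowest fetal liver plate, and no fetal liver plate reached AGM. The log2 fold change from fetal liver to bone marrow was -2.58 ± 0.38 (adjusted p = 0.000224). Ccnb2, the second cyclin B, fell as well, with a log2 fold change of -1.30 ± 0.36 (adjusted p = 0.0444), and this call was kept under 10 of 24 alternatives. The kinase itself, Cdk1, stood at 289 and 280.3 CPM in AGM, 213, 236, 217, 219 and 312 on fetal liver plates and 57.2, 94.1, 35.9, 108 and 148 on those of bone marrow. Fetal liver plate 5 lay above both AGM plates, and all bone marrow plates lay below all fetal liver plates. Its log2 fold change from fetal liver to bone marrow was -1.27 ± 0.27 (adjusted p = 0.00833).

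Cks1b and Cks2 encode the small Cks proteins that sit on Cdk1, and after Hmgb2 they had the highest mean CPM of the set. Cks1b read 533 and 625 CPM in AGM, 450.0, 465, 439, 370.4 and 473 on fetal liver plates and 158, 172, 143, 179 and 279 on those of bone marrow, with no overlap between neighbouring tissues. The change into bone marrow was -1.10 ± 0.22 (adjusted p = 0.00496). Cks2 read 413 and 453 CPM in AGM, 396, 396, 344, 349.7 and 516 on fetal liver plates and 130.1, 153, 112, 260.4 and 241 on those of bone marrow. Here the AGM plates lay inside the fetal liver range, and bone marrow lay below both. The change of Cks2 into bone marrow was -1.03 ± 0.25 (adjusted p = 0.019). As an alternative, cells with at least 1 UMI of a gene were counted in place of UMIs and scaled like them. Cks1b then turned to a log2 fold change of 0.22 (adjusted p = 0.486), and Hmgb2 was called higher in bone marrow (0.59, adjusted p = 0.00208). The scaling is to all detections of a library, and bone marrow cells detected fewer genes (median 2631, against 4117 in fetal liver). Unscaled, Cks1b had a UMI in 94.3% of fetal liver cells and 66.9% of bone marrow cells. Cdc25c, the phosphatase that activates Cdk1, was the 1 gene of the group that was not called, with a log2 fold change of -1.33 ± 0.70.

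Ube2c supplies ubiquitin to the anaphase-promoting complex and Cdc20 activates it. Ube2c stood at 389 and 401 CPM in AGM, 266, 245, 164, 214 and 281 on fetal liver plates and 18.7, 55.5, 0, 66.2 and 133 on those of bone marrow. Its log2 fold change from fetal liver to bone marrow was -1.85 ± 0.40 (adjusted p = 0.00836). Cdc20 stood at 174 and 179.9 CPM in AGM, 125, 141, 64.0, 105 and 95.3 on fetal liver plates and 21.8, 38.9, 13.9, 46.7 and 63.2 on those of bone marrow. Of both genes every bone marrow plate lay below every fetal liver plate and every fetal liver plate below AGM, and bone marrow plate 5 was the highest of its tissue. The change of Cdc20 into bone marrow was -1.42 ± 0.31 (adjusted p = 0.00934). Cdca3, a substrate and partner of this ligase machinery, fell by 1.14 on the log2 scale (adjusted p = 0.0243), and G2e3, a ubiquitin ligase of the G2 phase, was not called (log2 fold change -0.44 ± 0.49).

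Among the kinases, Aurka works at the spindle poles and Aurkb at the centromere. Aurka read 94.7 and 90.8 CPM in AGM, 76.3, 74.5, 38.6, 77.0 and 91.6 on fetal liver plates and 11.5, 40.0, 0, 37.2 and 32.5 on those of bone marrow. The change into bone marrow was -1.54 ± 0.34 (adjusted p = 0.0104), although fetal liver plate 3 and bone marrow plate 2 overlapped. Aurkb read 94.7 and 75.2 CPM in AGM, 92.3, 74.9, 70.9, 75.6 and 90.9 on fetal liver plates and 24.9, 37.5, 9.497, 39.9 and 51.3 on those of bone marrow. AGM and fetal liver shared 1 range, and bone marrow lay below it. The change of Aurkb into bone marrow was -1.20 ± 0.31 (adjusted p = 0.0303), a call kept under 11 of 24 alternatives and lost, among others, without any 1 of bone marrow plates 1 to 4 (adjusted p = 0.0848 without plate 4). Bub1 and Ttk, kinases of the spindle checkpoint, and Nek2, a centrosomal kinase, were not called, with log2 fold changes of -0.21 ± 0.54, -0.76 ± 0.51 and 0.51 ± 0.75.

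At the centromere, Cenpa is the histone variant that marks where the kinetochore forms. It measured 321 and 335 CPM in AGM, 241, 269, 178, 209.8 and 311 on fetal liver plates and 40.3, 55.8, 53.2, 67.6 and 123 on those of bone marrow. All 5 bone marrow plates lay under all 5 fetal liver plates. The log2 fold change into bone marrow was -1.66 ± 0.27 (adjusted p = 0.00061), and this call was kept under 23 of 24 alternatives, as was that of Ccnb1. Cenpe, a kinetochore motor, stood at 143 and 134 CPM in AGM, 95.2, 64.6, 38.4, 37.4 and 39.4 on fetal liver plates and 22.6, 17.1, 0.260, 1.81 and 39.0 on those of bone marrow. Its bone marrow plates spread from near 0 to within the fetal liver range. The change of Cenpe into bone marrow was -1.51 ± 0.35 (adjusted p = 0.0136). Cenpf, Birc5 and Cdca8 fell by 0.91, 1.19 and 1.09 on the log2 scale (adjusted p = 0.0213, 0.0266 and 0.0381), of which Birc5 and Cdca8 belong with Aurkb to the chromosomal passenger complex. These calls were kept under 16, 14 and 11 of 24 alternatives. Without bone marrow plate 4 Cdca8 changed by -0.72 (adjusted p = 0.372), and without bone marrow plates 1 to 3 by -0.58 (adjusted p = 0.0808).

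Spindle genes were mostly not called. Tpx2, which activates Aurka on the spindle, stood at 118 and 122 CPM in AGM, 63.1, 89.97, 42.2, 73.0 and 82.1 on fetal liver plates and 10.6, 24.3, 14.1, 15.9 and 56.2 on those of bone marrow. Its log2 fold change into bone marrow was -1.36 ± 0.35 (adjusted p = 0.0285), with bone marrow plate 5 inside the fetal liver range. Tacc3, a partner of clathrin in bundling spindle microtubules, read 86.6 and 84.6 CPM in AGM, 51.1, 50.1, 44.9, 60.7 and 52.5 on fetal liver plates and 32.0, 36.0, 2.34, 20.4 and 37.5 on those of bone marrow. Its plates did not overlap between these tissues, but the log2 fold change of -0.98 ± 0.31 into bone marrow missed the threshold (adjusted p = 0.0892). Ect2, which is needed for cytokinesis, read 33.0 and 13.0 CPM in AGM, 9.93, 14.7, 18.9, 30.2 and 9.09 on fetal liver plates and 3.69, 4.995, 4.81, 11.3 and 2.15 on those of bone marrow, a low gene with overlapping plates. Into bone marrow it changed by -1.92 ± 0.58 on the log2 scale (adjusted p = 0.0652), and Anln, which scaffolds the contractile ring, by -0.76 ± 0.67 (adjusted p = 0.63).

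Of the 9 genes of chromosome structure and chromatin, 0 were called from fetal liver to bone marrow. Hmgb2, an abundant chromatin protein, read 1065 and 1093 CPM in AGM, 1287, 1250.5, 1293, 991 and 1895 on fetal liver plates and 621, 639.9, 580.4, 948 and 901 on those of bone marrow. The bone marrow plates lay below the others without overlap, but the change of -0.70 ± 0.22 on the log2 scale was not called (adjusted p = 0.0752). Ncapd2, a condensin subunit, read 55.4 and 81.0 CPM in AGM, 40.9, 42.1, 39.9, 40.1 and 31.6 on fetal liver plates and 11.3, 14.6, 3.25, 9.98 and 36.8 on those of bone marrow, with bone marrow plate 5 inside the fetal liver range (log2 fold change -1.16 ± 0.42, adjusted p = 0.139). Mki67, the proliferation antigen Ki-67 and outside the naming rule, averaged 47.8, 39.8 and 39.0 CPM over the libraries of AGM, fetal liver and bone marrow. Its log2 fold change into bone marrow was -0.04 ± 0.38 (adjusted p = 0.987). In the nuclear envelope, Lbr, the lamin B receptor, changed by -0.41 ± 0.43 and Tmpo, which encodes lamina-associated polypeptide LAP2, by -0.19 ± 0.27, and neither was called (adjusted p = 0.698 and 0.795).

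**Figure D2:**
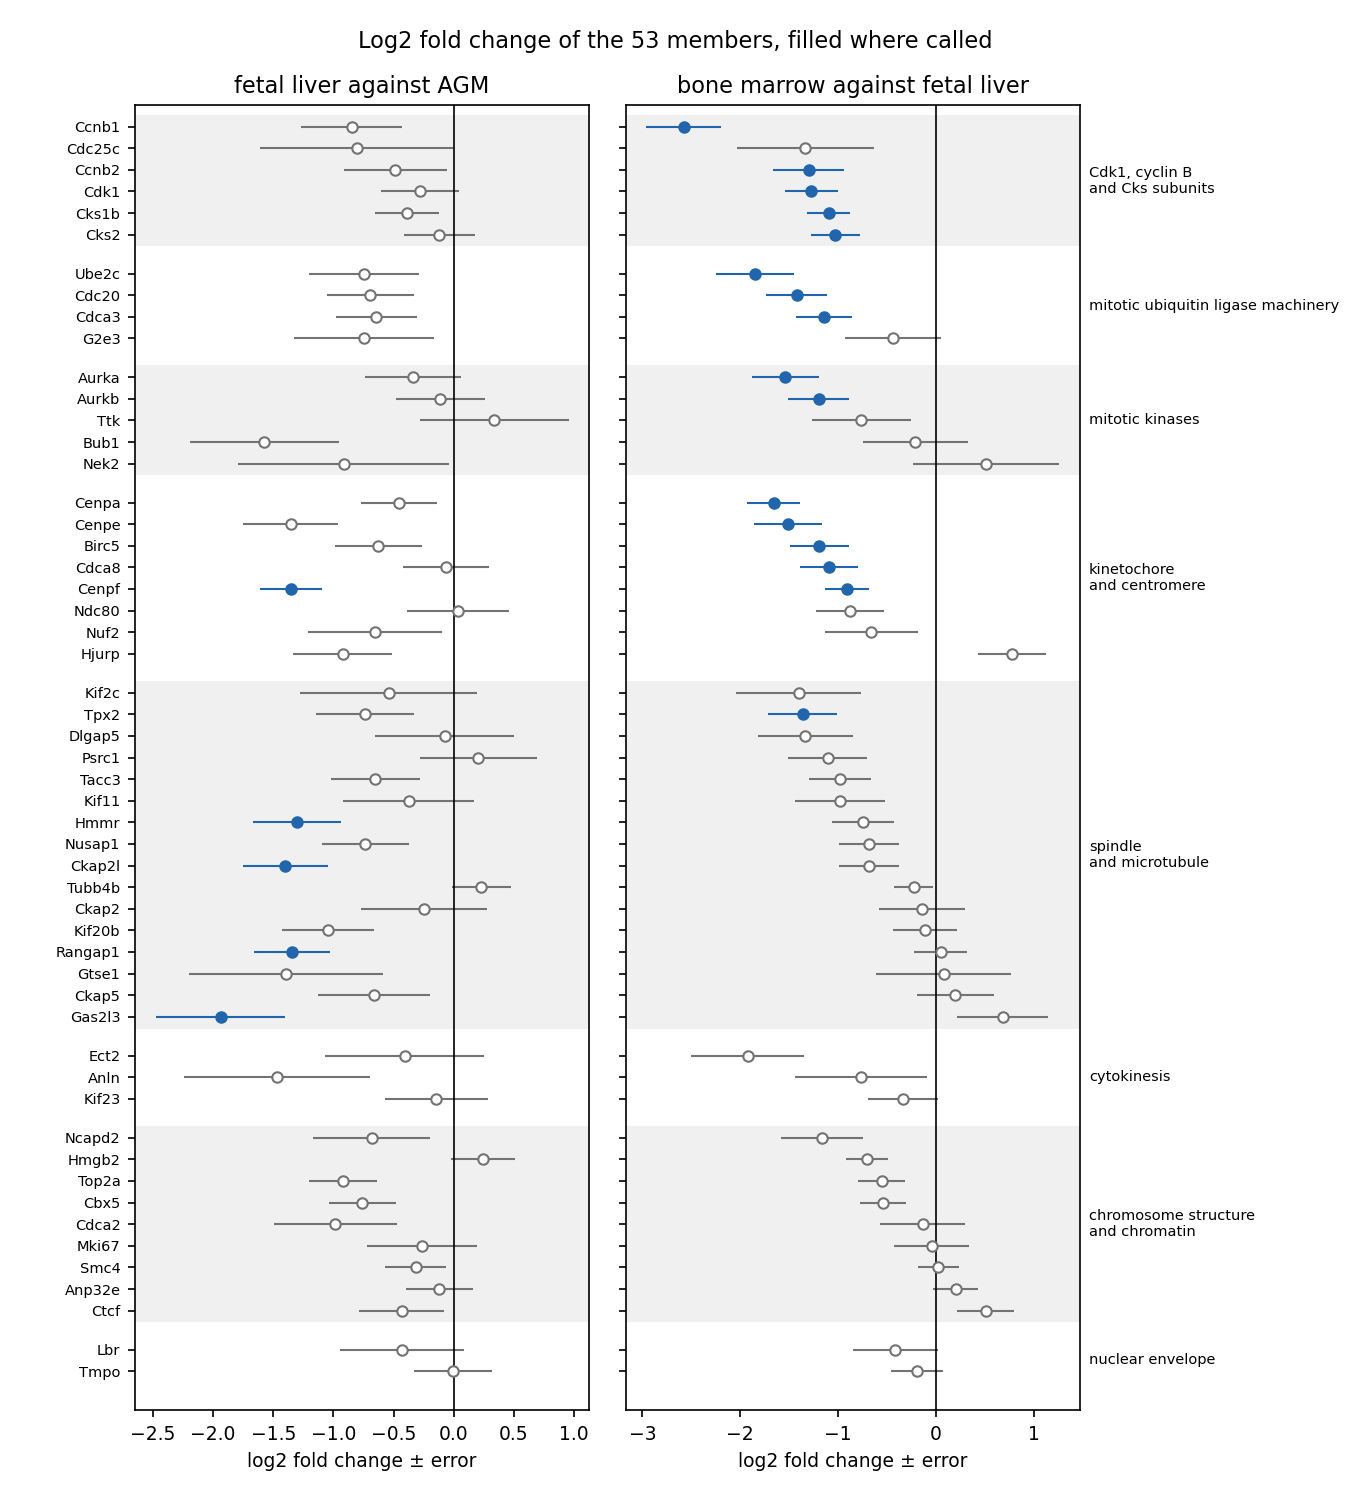
Log2 fold change of each of the 53 genes (x axis) with its error, by role (rows), from AGM to fetal liver (left) and from fetal liver to bone marrow (right). Filled points passed the adjusted p of 0.05: 5 genes on the left and 16 on the right, all below 0.

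Of the 53, 9 had a log2 fold change above 0 from fetal liver to bone marrow, and none of them was called. Hjurp, the chaperone that loads Cenpa, was the largest at 0.78 ± 0.35 (adjusted p = 0.262). It stood at 57.2 and 75.3 CPM in AGM, 50.4, 35.5, 32.3, 22.7 and 32.3 on fetal liver plates and 87.8, 67.6, 54.3, 49.0 and 35.3 on those of bone marrow, so that 4 of 5 bone marrow plates were above the second highest fetal liver plate. Gas2l3, which links actin and microtubules, followed at 0.69 ± 0.47 (adjusted p = 0.499), Nek2 at 0.51 ± 0.75 (adjusted p = 0.805) and Ctcf, the insulator protein, at 0.51 ± 0.30 (adjusted p = 0.418). Nek2 owed 33.5% of its bone marrow UMIs to 1 cell. Anp32e, a histone chaperone, changed by 0.20 ± 0.23 and Ckap5, a microtubule polymerase, by 0.20 ± 0.39 (adjusted p = 0.73 and 0.866). Their plates overlapped widely.

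From AGM to fetal liver 5 of the 53 fell and 0 rose, where 1.91% of all tested genes fell. An unadjusted p under 0.05 was reached by 11 of the 53, against 15.4% of all tested genes. The median log2 fold change of the 53 was -0.64, against 0.05 over all tested genes. On 27 of the 53 every fetal liver plate lay below both AGM plates, against 14.5% of all tested genes. AGM is 1 library, so its spread between libraries was not measured and was assumed to be like that of the others. The count moved from 0 to 18 across the alternatives. It was 0 without fetal liver plate 4, where 0.459% of all tested genes fell. Without fetal liver plate 3 or bone marrow plate 5 it was 1, where 1.35% and 1.05% of all genes fell. It was 2 without AGM plate 1, fetal liver plate 2, bone marrow plate 2 or bone marrow plate 4 (1.76%, 1.54%, 1.44% and 1.3% of all genes). Without fetal liver plate 5, bone marrow plate 1 or bone marrow plate 3 it was 3 (1.49%, 1.44% and 1.55%). It was 16 and 17 without bone marrow plates 1 to 3 and plates 4 and 5, and 18 when bone marrow was not in the model at all, fits in which 6.31%, 6.24% and 6.78% of all tested genes fell.

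Of these 5, Cenpf and 4 spindle genes, Cenpf was called under 21 of 24 alternatives and Rangap1 under 19, and the others under 8 to 12. Cenpf, a large protein of the kinetochore and the G2 nuclear matrix, read 320.1 and 288 CPM in AGM, 146, 102, 60.2, 135 and 116 on fetal liver plates and 76.9, 63.7, 37.9, 79.8 and 56.8 on those of bone marrow. Both AGM plates lay above every other plate. The log2 fold change from AGM to fetal liver was -1.35 ± 0.26 (adjusted p = 0.00248). Rangap1, which triggers hydrolysis of GTP by Ran, read 139.9 and 129 CPM in AGM, 52.3, 81.3, 47.8, 49.2 and 36.7 on fetal liver plates and 63.5, 70.9, 50.3, 39.0 and 52.5 on those of bone marrow. Fetal liver and bone marrow shared 1 range below AGM. The change of Rangap1 into fetal liver was -1.34 ± 0.32 (adjusted p = 0.0142), and its change from there to bone marrow was 0.05 ± 0.27 (adjusted p = 0.973).

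Ckap2l, a spindle protein of dividing progenitors, read 144 and 124 CPM in AGM, 71.6, 31.4, 45.7, 47.9 and 56.2 on fetal liver plates and 17.3, 45.0, 11.97, 26.8 and 49.7 on those of bone marrow. Its log2 fold change from AGM to fetal liver was -1.40 ± 0.35 (adjusted p = 0.0217). Hmmr, a microtubule-binding protein that recruits Tpx2, read 128 and 116 CPM in AGM, 63.7, 37.1, 48.3, 50.3 and 40.4 on fetal liver plates and 32.6, 8.91, 19.4, 16.8 and 52.2 on those of bone marrow. The change of Hmmr into fetal liver was -1.30 ± 0.37 (adjusted p = 0.0434). Gas2l3 read 45.9 and 39.0 CPM in AGM, 13.9, 14.0, 2.31, 13.3 and 7.41 on fetal liver plates and 32.6, 8.78, 2.60, 12.7 and 23.9 on those of bone marrow. The change of Gas2l3 into fetal liver was -1.94 ± 0.54 (adjusted p = 0.0412). For all 3 genes both AGM plates lay above every other plate, and fetal liver and bone marrow overlapped.

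From AGM to bone marrow 25 of the 53 fell and 0 rose, against 3.63% of all tested genes that fell. The median log2 fold change was -1.31, against 0.04 over all tested genes, and 40 of the 53 were lower on every bone marrow plate than on both AGM plates, against 15.1% of all tested genes. This comparison shares its bone marrow libraries with the comparison to fetal liver, and its AGM library with the other. The largest falls were those of Ccnb1 (log2 fold change -3.42 ± 0.43, adjusted p = 1.49e-05), Cenpe (-2.86 ± 0.40, adjusted p = 5.19e-05) and Ube2c (-2.60 ± 0.46, adjusted p = 0.000647). Ect2 and Cenpf followed at -2.33 ± 0.66 and -2.26 ± 0.26 (adjusted p = 0.0298 and 4.74e-06). The call of Ect2 was kept under 14 of 24 alternatives, and without AGM plate 1 its change was -1.31 (adjusted p = 0.272). Without fetal liver plate 4 the count was 7, and the share of all genes called in either direction fell from 8.92% to 2.15%. Ordered by mean CPM, 39 of the 53 ran from AGM through fetal liver down to bone marrow, 46 were highest in AGM and 43 lowest in bone marrow.

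Genes around the set were read from 4 lists. Of 74 further mitotic genes that were tested, 14 fell and 0 rose from fetal liver to bone marrow, where 2.06% of all tested genes fell. Their median log2 fold change was -0.85. Ncaph, a condensin subunit, led with -2.82 ± 0.47 (adjusted p = 0.000766), from 25.4 to 57.2 CPM on fetal liver plates to 1.17 to 9.59 on bone marrow plates. The kinetochore genes Cenpw and Zwint fell by 1.11 and 1.008 on the log2 scale (adjusted p = 0.00565 and 0.00958). From AGM to fetal liver 1 of the 74 fell (Smc2, log2 fold change -1.017) and 1 rose (Stmn1, 1.07), where 1.91% of all tested genes fell. From AGM to bone marrow 30 of the 74 fell and 0 rose, against 3.63% of all tested genes that fell.

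Of 21 regulators that act on mitotic promoters, 0 were called in any of the 3 comparisons. Among all tested genes, the background for the lists of this paragraph, 2.06% fell and 2.68% rose from fetal liver to bone marrow. From AGM to fetal liver 4.83% of all tested genes were called in either direction, and from AGM to bone marrow 8.92%. Mybl2, the B-Myb subunit that turns MuvB into an activator, stood at 10.4, 8.69 and 1.45 CPM over the libraries of AGM, fetal liver and bone marrow, and its change into bone marrow was -2.60 ± 1.018 on the log2 scale (adjusted p = 0.183). Rbbp4, a MuvB core subunit, changed by -0.45 ± 0.20 (adjusted p = 0.269), and Rbl1, the pocket protein p107, by 1.016 ± 0.47 (adjusted p = 0.281). Of 14 subunits of the anaphase-promoting complex, Anapc16 fell into bone marrow, by 0.93 on the log2 scale (adjusted p = 0.0337), while Anapc5 and Cdc26 changed by -0.56 ± 0.21 and -0.54 ± 0.22 (adjusted p = 0.148 and 0.202). The list had a median log2 fold change of -0.26. From AGM to bone marrow 1 of its genes rose (Anapc13, 0.91). Of 15 cohesin and condensin genes the cohesin subunits Stag2 and Stag1 rose into bone marrow by 1.65 ± 0.30 and 1.38 ± 0.33 on the log2 scale (adjusted p = 0.00184 and 0.0188), and Ncaph fell. This list overlaps with that of further mitotic genes.

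Promoter sequences of the 6 genes with the smallest adjusted p from fetal liver to bone marrow are shown, because these genes fell together and the promoters of such genes are known for 2 short elements. The sequences are those of RefSeq for GRCm38.p6, from 250 bases before to 50 bases after the start, 5′ to 3′ on the strand of the gene. Capitals mark the CHR as TTTGAA or TTCGAA, and the CCAAT box as CCAAT, each searched on both strands, so that TTCAAA and ATTGG are the same elements read from the other strand. They are Ccnb1 (chr13:100786437-100786736, minus strand), Cenpa (chr5:30666636-30666935, plus strand), Cks1b (chr3:89418242-89418541, minus strand), Cdk1 (chr10:69352863-69353162, minus strand), Ube2c (chr2:164769679-164769978, plus strand) and Cdc20 (chr4:118437294-118437593, minus strand).
Ccnb1: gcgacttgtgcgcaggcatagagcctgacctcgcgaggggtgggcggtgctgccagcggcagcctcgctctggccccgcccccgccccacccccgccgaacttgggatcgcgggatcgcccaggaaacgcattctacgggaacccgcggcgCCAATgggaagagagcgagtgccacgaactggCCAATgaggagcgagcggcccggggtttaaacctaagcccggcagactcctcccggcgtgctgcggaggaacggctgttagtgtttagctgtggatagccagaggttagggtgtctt
Cenpa: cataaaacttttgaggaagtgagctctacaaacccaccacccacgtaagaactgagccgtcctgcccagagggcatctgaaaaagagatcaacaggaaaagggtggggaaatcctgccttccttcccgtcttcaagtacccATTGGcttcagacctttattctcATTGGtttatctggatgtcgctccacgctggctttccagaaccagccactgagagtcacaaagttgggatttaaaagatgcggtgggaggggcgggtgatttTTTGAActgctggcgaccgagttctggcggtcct
Cks1b: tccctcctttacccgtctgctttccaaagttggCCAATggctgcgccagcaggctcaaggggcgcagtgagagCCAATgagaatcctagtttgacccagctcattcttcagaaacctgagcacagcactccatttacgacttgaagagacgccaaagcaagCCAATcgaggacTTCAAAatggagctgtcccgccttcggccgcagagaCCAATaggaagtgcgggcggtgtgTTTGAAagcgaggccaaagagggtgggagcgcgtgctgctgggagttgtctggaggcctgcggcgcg
Cdk1: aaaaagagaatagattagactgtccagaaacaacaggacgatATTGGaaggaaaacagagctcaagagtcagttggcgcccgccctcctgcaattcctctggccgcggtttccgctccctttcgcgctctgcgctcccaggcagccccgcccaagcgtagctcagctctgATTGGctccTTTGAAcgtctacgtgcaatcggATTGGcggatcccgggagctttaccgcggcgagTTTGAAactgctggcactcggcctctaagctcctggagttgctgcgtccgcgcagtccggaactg
Ube2c: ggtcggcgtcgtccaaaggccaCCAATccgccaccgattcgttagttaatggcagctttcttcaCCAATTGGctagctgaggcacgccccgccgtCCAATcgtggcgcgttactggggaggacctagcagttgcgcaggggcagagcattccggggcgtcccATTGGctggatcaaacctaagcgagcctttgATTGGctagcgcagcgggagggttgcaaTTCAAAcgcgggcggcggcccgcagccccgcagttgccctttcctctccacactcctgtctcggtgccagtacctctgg
Cdc20: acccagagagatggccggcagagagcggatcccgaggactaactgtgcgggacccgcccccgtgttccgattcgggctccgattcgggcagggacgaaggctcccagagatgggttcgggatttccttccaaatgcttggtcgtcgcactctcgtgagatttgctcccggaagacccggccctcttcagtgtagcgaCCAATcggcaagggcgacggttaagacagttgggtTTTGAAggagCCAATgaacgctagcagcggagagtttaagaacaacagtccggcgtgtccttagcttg

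In these windows Cks1b and Cdk1 had 2 CHR elements each, Cenpa, Ube2c and Cdc20 had 1 each, and Ccnb1 had none. The CHR nearest to the start began 15 bases before it in Cdk1, 17 in Cks1b, 18 in Cdc20 and 29 in Ube2c, and 17 bases after it in Cenpa. CCAAT boxes numbered 6 in Ube2c, 4 in Cks1b, 3 in Cdk1 and 2 each in Ccnb1, Cenpa and Cdc20. In Ube2c 1 CCAAT and 1 ATTGG overlap by 2 bases within CCAATTGG. Of the 53 genes, 47 had a promoter in the table, and 36 of them (76.6%) held a CHR in at least 1 window, against 17.1% of 11615 tested genes with a promoter. A CCAAT box was held by 76.6%, against 42.5%, and 2 or more by 61.7%, against 16.0%. Both elements in 1 window were found for 61.7%, against 6.91%. Within the set 10 of 14 genes that fell into bone marrow held a CHR, and 26 of 33 that were not called. A CCAAT box was held by 92.9% of the first and 69.7% of the second, 2 or more by 85.7% and 51.5%, and both elements in 1 window by 71.4% and 57.6%. These letters are a description of the windows, not of binding.

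The sum over a plate was then resolved into single cells. To compare cells at 1 depth, each cell was thinned to 20000 UMIs, which left out 2 AGM, 35 fetal liver and 31 bone marrow cells that were shallower. An AGM cell then showed 26.7 and 27.2 of the 53 genes with at least 1 UMI, as plate means. On fetal liver plates 1 to 5 the means were 20.6, 18.3, 15.9, 16.7 and 23.9 genes, and on bone marrow plates 5.93, 7.68, 6.14, 9.45 and 10.7. The plates did not overlap between tissues. Before thinning the means over plates were 39.0, 24.9 and 11.2 genes. Over plates the thinned mean was 2.39-fold higher in fetal liver than in bone marrow, while the number of all detected genes was 1.54-fold higher. AGM stood 1.41-fold above fetal liver, with 1.11-fold more detected genes.

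A stricter level of 100 CPM was also used, chosen after the values had been seen. In AGM the median cell had 18 of the 53 genes at or above it, in fetal liver 8 and in bone marrow 3. The lowest AGM cell had 4, the lowest fetal liver cell had 1, and 13 of 423 bone marrow cells had none. Pairs of a gene and a cell with 1 UMI made up 17.9%, 31.4% and 40.6% of all pairs with a UMI in AGM, fetal liver and bone marrow, but pairs with at least 20 UMIs held 93.1%, 77.3% and 88.0% of the UMIs of the set.

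Cells with at least 10 of the 53 genes at 100 CPM were 110 of 143 in AGM (76.9%), 170 of 454 in fetal liver (37.4%) and 38 of 423 in bone marrow (8.98%). On AGM plates the shares were 75.8% and 79.2%. Fetal liver plates 1 to 5 gave 35.8%, 34.4%, 28.0%, 21.7% and 67.4%, and bone marrow plates 8.42%, 9.38%, 5.63%, 8.64% and 12.5%. The 3 tissues did not overlap, but fetal liver plate 5 lay far above its neighbours, and without it the fetal liver share was 30.1%. At 1 depth, as 2 of 20000 UMIs, the shares were 83.7%, 49.6% and 9.44%, with 40.7% over fetal liver plates 1 to 4. Here fetal liver plate 5, at 90.7%, lay above both AGM plates (82.1% and 87.0%), so that AGM and fetal liver overlapped. This class is a range of a continuous count and not a cell type: 29 AGM, 106 fetal liver and 20 bone marrow cells had 8 to 11 of the genes. With 20 genes as the bound the shares were 44.8%, 15.4% and 4.26%, and fetal liver plate 5 then held 16.85%, within the 8.54% to 18.95% of the other 4 plates.

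**Figure D3:**
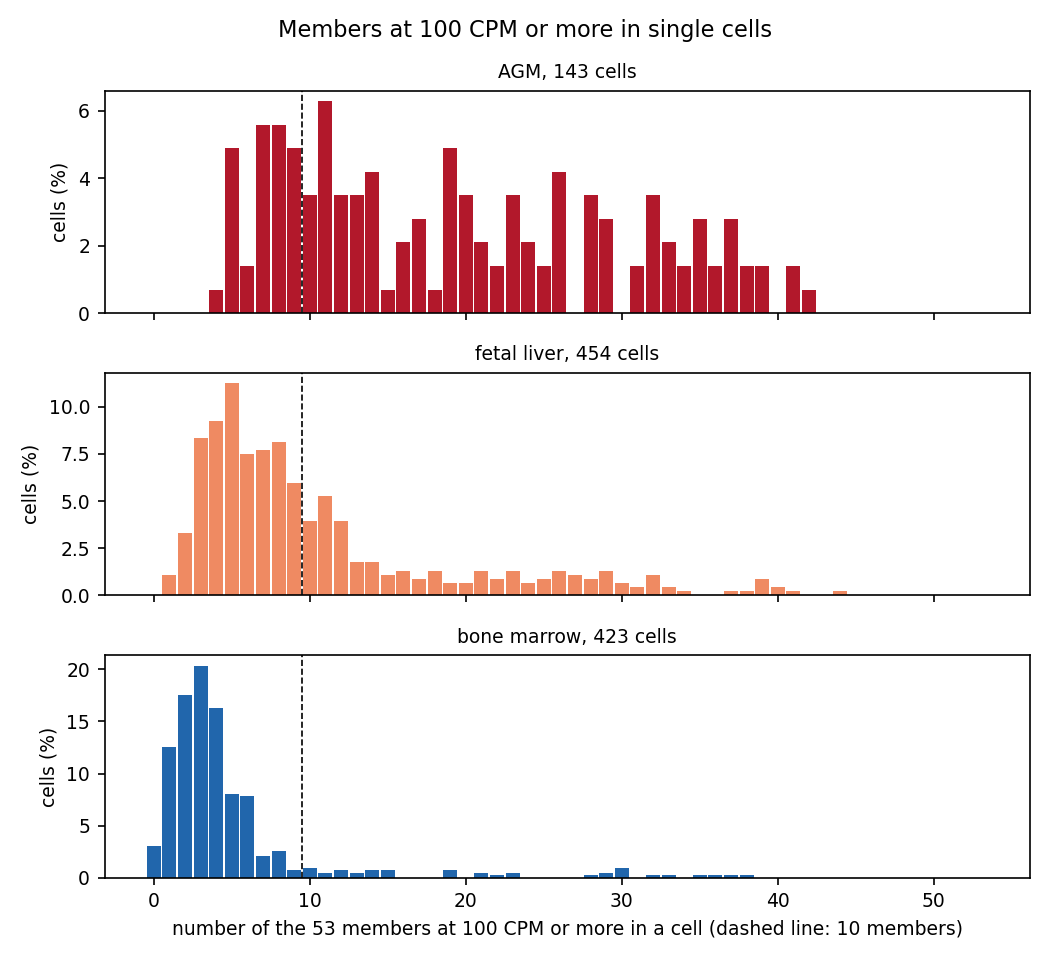
Share of cells in percent (y axis) by the number of the 53 genes at 100 CPM or more in the cell (x axis), in AGM, fetal liver and bone marrow. The dashed line marks 10 genes: the share to its right is 76.9% for AGM, 37.4% for fetal liver, but 8.98% for bone marrow.

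Cells in this class are high in the set by the way the class was drawn, so their levels are a description. In bone marrow their median summed level was 10584 CPM, against 9454 in AGM and 7366 in fetal liver, while the remaining cells had medians of 1692, 2890 and 2483 CPM. Such cells held 39.5% of the summed CPM in bone marrow, 68.7% in fetal liver and 92.1% in AGM. The top 10% of cells held 42.0% of it in bone marrow, 34.4% in fetal liver and 21.8% in AGM, and for the 47 genes without the 6 that also act outside mitosis 54.3%, 41.2% and 24.4%. These cells were also deeper, with medians of 167456, 64564.5 and 99683 UMIs in AGM, fetal liver and bone marrow against 131310, 48868 and 56686 in the others. Their stem cell list had a median of 1407 CPM against 1498 in the other cells of AGM, 1136 against 1302 in fetal liver, and 966 against 1617 in bone marrow. The endothelial list was lower in them in AGM (2053 against 4616 CPM), level in fetal liver (1012 against 1016) and higher in bone marrow (674 against 474). The erythroid list had 341 against 101 CPM in AGM, 1720 against 1921 in fetal liver and 1389 against 1246 in bone marrow. The myeloid list was higher in these cells in AGM (960.1 against 585 CPM). It was lower in them in fetal liver (1096 against 1242) and bone marrow (1325 against 1588). The part of depth and of these lists in the class was not tested.

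Gene by gene, a difference of level between tissues was set beside 2 parts of it: the share of cells at 100 CPM and the median CPM within those cells. From fetal liver to bone marrow the share fell for 48 of the 50 genes that had at least 5 such cells in both tissues, with a median ratio of 0.399, whereas over 9263 tested genes it fell for 67.0%, with a median ratio of 0.819. The level within such cells was higher in bone marrow for 46 of the 50, but so it was for 94.9% of the tested genes, and the median ratio was 1.325 for the 50 and 1.61 for all. From AGM to fetal liver the share fell for 52 of 53, against 78.4% of 7721 tested genes (median ratio 0.504, against 0.717). The level within cells had a median ratio of 0.916, against 1.05.

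**Figure D4:**
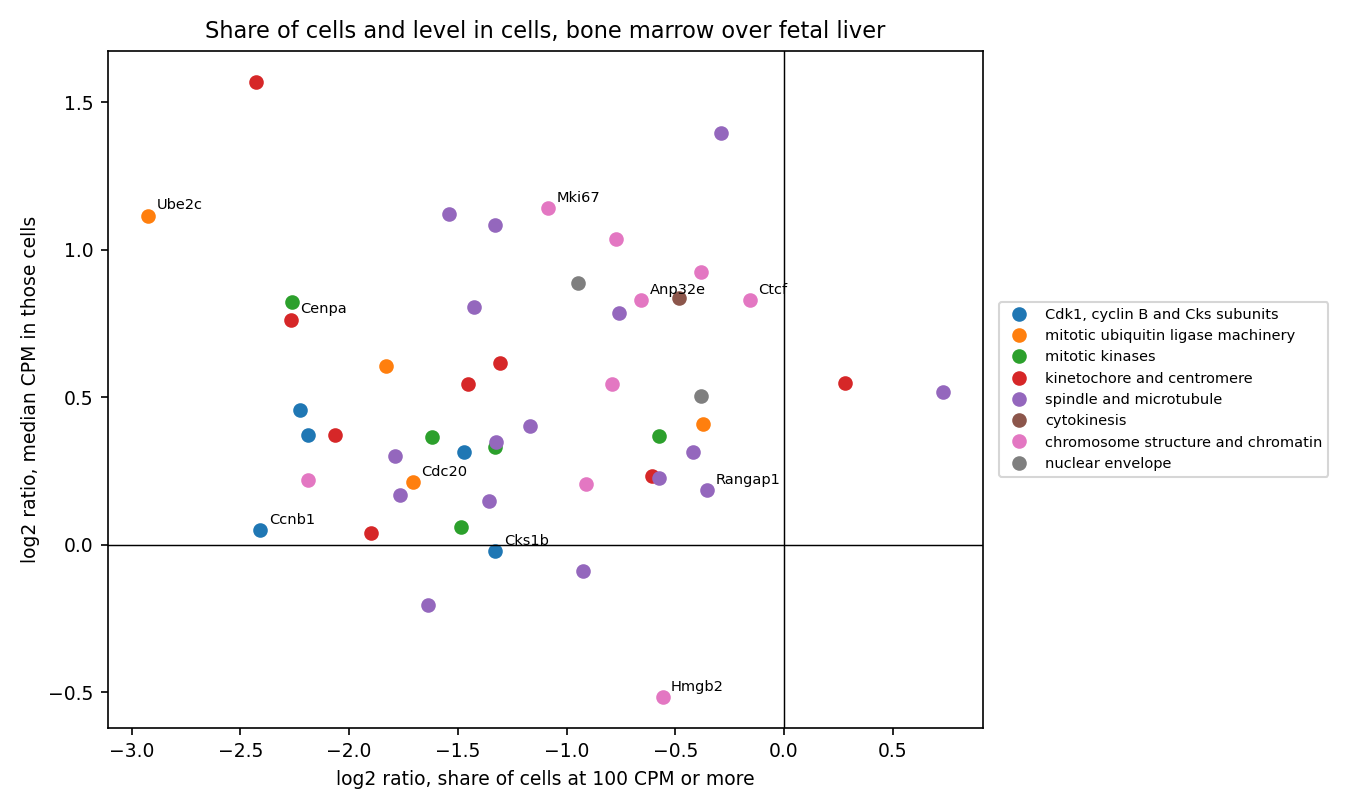
Each point is 1 of 50 genes, coloured by role: log2 ratio of bone marrow over fetal liver of the share of cells at 100 CPM or more (x axis) and of the median CPM in those cells (y axis). In 48 of 50 the share is lower in bone marrow, as it is for 67.0% of 9263 tested genes. In 46 of 50 the level in those cells is higher, as it is for 94.9% of the tested genes.

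Ube2c had the largest fall in share into bone marrow: 102 of 143 AGM cells (71.3%), 171 of 454 fetal liver cells (37.7%) and 21 of 423 bone marrow cells (4.96%, exact 95% interval 3.10% to 7.49%) were at 100 CPM. The fetal liver plates gave 41.1%, 31.3%, 17.1%, 25% and 73.0%, of which plate 5 stood apart, and the bone marrow plates lay between 0% and 10%. Within those cells the median of Ube2c was 432, 239 and 518 CPM. Ccnb1 was at 100 CPM in 46.2%, 16.3% and 3.07% of cells (13 bone marrow cells), with medians of 321, 243 and 251 CPM within them, and 1 bone marrow cell held 35.2% of the Ccnb1 UMIs of its tissue. Mki67, whose CPM over the libraries was nearly level, was at 100 CPM in 17.5%, 9.03% and 4.26% of cells, with medians of 157, 185 and 408 CPM. Hmgb2 differed from these: 99.3%, 98.5% and 66.9% of cells were at 100 CPM, with medians of 1263, 1006 and 703 CPM. Hjurp and Gas2l3 were the 2 genes whose share did not fall into bone marrow, with 9.91% and 12.1% for Hjurp and 2.42% and 4.02% for Gas2l3. The exact intervals of each of these 2 pairs overlap, from 7.32% to 13.0% and 9.11% to 15.5% for Hjurp, and cover counting error only.

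Detection of several genes in 1 cell was counted last. A bone marrow cell with Ube2c at 100 CPM had on average 20.3 more of the other 52 genes at that level than a cell without it. The difference was larger for some other genes, up to 27.3 for Cdc25c, which was at that level in 3 bone marrow cells. For G2e3, Cbx5, Ctcf, Tubb4b and Hmgb2, the lowest of the set, the difference was 1.88, 2.21, 2.48, 2.90 and 2.96 genes. These averages share cells and depth and are given as a description.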

How the data were processed

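The authors deposited 1 table of UMI counts per gene and well for each of 12 plates. UMI-tools, featureCounts, SAMtools and the mouse build mm10 are named per the submitters' processing notes, without versions. The gene models and strandedness used in counting are not known here. Where a gene overlaps another, its reads may therefore be shared. The 12 plates carry the same 96 well barcodes, which name wells. A well was kept if it reached 1000 genes and 3000 UMIs with less than 20% of UMIs mitochondrial, which held for 1020 of 1152. Counts of kept cells were summed per origin code into 5 libraries of 6086932 to 24699454 UMIs and fitted together with edgeR 4.0.16 (R 4.3.3; TMM scaling, filterByExpr, quasi-likelihood test, Benjamini-Hochberg adjustment over 15472 genes, threshold 0.05), with 2 residual and 18 prior degrees of freedom. The error beside a log2 fold change is its size divided by the square root of F. No label says that codes are separate animals, so p-values measure only the spread between these libraries, which may be technical. CPM of plates are for description. Intervals are exact (Clopper-Pearson) and, like floors of 3 UMIs, cover counting error only. Cells were thinned, and tables made, with Python 3.11.15, numpy 2.4.6, pandas 2.3.3 and scipy 1.17.1, and plots with matplotlib 3.10.9. DESeq2 1.42.0 was an alternative. The fitting script was tested on simulated data.

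The genes and lists were chosen with earlier results of these data known. Genes named were the 2 of each role with the smallest adjusted p from fetal liver to bone marrow, the 5 called genes of largest change in each comparison, up to 6 with a positive change into bone marrow, the 3 of highest mean CPM and the 3 of each pathway list with the smallest adjusted p. Others were named after their values were seen: the remaining called genes, the uncalled genes of the Cdk1, ubiquitin and kinase roles, Mki67, Anapc13, Smc2 and Stmn1.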

Additional observations from a re-analysis of the deposited data

Results flagged for a closer look

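Groups of 5 plates were examined for 27 named genes of the set and for measures over the whole set. In 4 of 60 groups 1 plate lay far from the other 4. Chance alone marks about 1 in 20 groups, a similar share. Cks1b stood at 279 CPM on bone marrow plate 5, against 143 to 179 on the other bone marrow plates. Nek2 stood at 30.4 CPM on the same plate, against 0 to 7.57. Ncapd2 stood at 31.6 CPM on fetal liver plate 5, below the 39.9 to 42.1 of the other fetal liver plates. Anp32e stood at 78.0 CPM on fetal liver plate 2, below the 122 to 138 of the others.

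The 132 wells that were left out held 375 UMIs of the 53 genes among 107785 UMIs, in 70 wells. Of these wells 76 had under 200 UMIs each, and they held 18 of the 375 among 2703 UMIs. This is a signal in wells that no comparison used.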

How the results depend on the processing

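No paired analysis was possible because replicate numbers name plates and the plates of a tissue share an origin code, so that no number joins samples of different tissues. From AGM to fetal liver 5 of the 53 genes were called, where 1.91% of all tested genes fell. With cells of at least 2000 genes 3 were called, where 1.62% of all tested genes fell. When cells with at least 1 UMI were counted in place of UMIs 0 were called (1.29% of all tested genes fell). With each plate as a library 2 were called (1.56%), and with no filter on low counts 9 (2.01%). With only the 2 tissues compared 18 of the 53 were called, where 6.78% of all tested genes fell. The count was 16 without bone marrow plates 1 to 3, 17 without bone marrow plates 4 and 5, 3 without fetal liver plates 1 to 3 and 1 without fetal liver plates 4 and 5, and leaving out 1 plate gave 0 to 7. From fetal liver to bone marrow 16 were called: 10 with cells of at least 2000 genes, 3 with only the 2 tissues compared, 30 without bone marrow plates 4 and 5, and 1 to 16 leaving out 1 plate. From AGM to bone marrow 25 were called, with 8.92% of all genes, and 7 to 27 leaving out 1 plate, with 2.15% to 11%. DESeq2 called 5, 16 and 22 of the 53 in the 3 comparisons, and 6.79%, 6.19% and 11.8% of all genes. From fetal liver to bone marrow the share of all genes called fell from 4.73% to 3.72% with cells of at least 2000 genes and to 2.57% with only the 2 tissues. With each plate as a library it rose to 7.25%, while the count of the set fell. Leaving out 1 plate gave 0.766% to 4.93%. Counting cells with at least 1 UMI, scaled to all such counts of a library, reversed some log2 fold changes into bone marrow. Cks1b turned to 0.22 from fetal liver and 0.60 from AGM, and from AGM Cks2 turned to 0.14 and Cbx5 to 0.20. The unscaled share of cells with a UMI fell from AGM to bone marrow, from 100% to 66.9% for Cks1b and from 99.3% to 49.6% for Cks2. The scaled setting called 12 of the 53 lower and 1 higher (Hmgb2) from fetal liver to bone marrow, where it called 2.36% of all genes lower. From AGM to bone marrow it called 22 lower and 3 higher (Cks1b, Hmgb2 and Tubb4b), and 5.61% of all genes lower. Counting cells with at least 10 UMIs called Hmgb2 higher from AGM to fetal liver (1.21). The cause of these changes was not tested.

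The log2 ratio of the summed level from AGM to fetal liver was -0.41, but -0.64 without TMM scaling and -0.59 without the 6 genes with uses outside mitosis. From AGM to bone marrow it was -1.16, and -1.50 without those 6. Leaving out TMM scaling moved the median of all genes by -0.23, -0.05 and -0.28 in the 3 comparisons. After thinning to 5000 UMIs, AGM cells showed 1.66-fold more of the genes than fetal liver cells, against 1.41-fold at 20000. Counting cells with at least 10 UMIs, other bounds for the class of cells, and its share without fetal liver plate 5 were chosen after seeing the data. Bone marrow plates 4 and 5 make up the shallowest library, but all 53 genes had a UMI on each of them. On bone marrow plates 1 and 3, which were deeper, 52 and 44 had one. The part of depth in single genes was not tested.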
